A study of Homo sapiens with 32 samples.

Results

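The genes described here encode 41 proteins that the liver secretes into plasma, chosen by name from 20037 protein-coding genes: 12 clotting factors (F2, F5, F7, F9, F10, F11, F12, F13B, FGA, FGB, FGG and KNG1), 6 genes of anticoagulation and fibrinolysis (PROC, PROS1, SERPINC1, SERPIND1, SERPINF2 and PLG), 5 protease inhibitors (SERPINA1, SERPING1, AMBP, ITIH1 and ITIH3), 7 carriers and fetal or acute-phase proteins (ALB, AFP, TTR, TF, HP, HPX and AHSG) and 11 complement genes (C3, C4BPA, C5, C6, C8A, C9, CFB, CFI, MASP1, MBL2 and VTN). Binding of the transcription factor HNF4α around them was read from 18 ChIP-seq peak lists of 3 human pancreatic ductal adenocarcinoma cell lines. A gene counted as having a peak in a list when a peak summit, the position of highest signal, lay within 50 kb of the gene's span. Panc10.05 cells induced with 25 ng/mL doxycycline to express P1-α2 or with 12.5 ng/mL to express P2-α8, and BxPC3 cells induced with 500 ng/mL for either isoform, were mapped with an antibody to all HNF4α isoforms (pan-HNF4α). AsPC1 cells (labelled ASPC1) carried CRISPR interference, in which a guide RNA directs repression of a promoter: sgNC is the control guide, sgP1 is directed at the P1 promoter of HNF4A and sgP2 at its P2 promoter, and the titles name 1 guide for each promoter. The pan-HNF4α antibody was used for all 3 AsPC1 genotypes, and a P1-specific antibody was used in addition for sgNC and sgP2. Each of the 9 groups has 2 libraries. The BxPC3 P2-α8 libraries bear P1-a8 in their titles and were grouped by their genotype label. The induced isoforms are transgenes in 2 lines, the guides act on the endogenous gene in the third, and the number that opens each title, whose meaning the labels do not state, changes with the line.

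HNF4α is a nuclear receptor that binds DNA as a homodimer at direct repeats of a hexamer and is a central regulator of hepatocyte genes. The genes of clotting factors, complement components, serpins and carriers are among its known targets in liver. Transcription from the P1 or P2 promoter of HNF4A gives isoforms that differ at the N-terminus. P1 isoforms predominate in adult liver. Clotting proceeds through a cascade of proteases from factor XII or factor VII to thrombin and fibrin, and protein C with its cofactor protein S restrains it. Complement is a second protease cascade of plasma, built around C3 and ending in the pore of C5b to C9.

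The promoters that held a summit are shown first, because peaks lay at the gene start in F10 and F7 and within the 250 bases before it in VTN and SERPINA1. RefSeq promoter windows of GRCh38.p14 reach from 250 bases before to 50 bases after a start, and 35 of the 41 genes had at least 1 window (45 windows in all). SERPINC1, SERPINF2, SERPING1, TTR, HP and C3 had no entry. Capitals mark a match, on either strand, to CAAAGTCCA (F10), CAAAGGTCA (VTN), CAAAGTNCA (F9) or the single hexamer CAAAGT (F7), letters that resemble the known HNF4 element, and the SERPINA1 window has none. F9 is added for contrast, chosen after its values were seen, because it is the 1 gene of the 41 with no peak in any list.
F10, chr13:113122549-113122848, plus strand: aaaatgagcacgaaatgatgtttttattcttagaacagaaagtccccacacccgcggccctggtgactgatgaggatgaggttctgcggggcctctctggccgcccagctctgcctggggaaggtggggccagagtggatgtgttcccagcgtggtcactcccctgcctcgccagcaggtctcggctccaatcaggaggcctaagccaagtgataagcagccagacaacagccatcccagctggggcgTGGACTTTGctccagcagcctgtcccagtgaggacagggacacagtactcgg
VTN, chr17:28370258-28370557, minus strand: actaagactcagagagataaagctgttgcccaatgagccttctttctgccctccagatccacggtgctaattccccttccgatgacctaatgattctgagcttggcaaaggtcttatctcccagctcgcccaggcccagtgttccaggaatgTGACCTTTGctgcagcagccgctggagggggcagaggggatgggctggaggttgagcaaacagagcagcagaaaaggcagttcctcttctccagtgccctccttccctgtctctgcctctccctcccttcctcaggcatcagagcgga
F7, chr13:113105541-113105840, plus strand: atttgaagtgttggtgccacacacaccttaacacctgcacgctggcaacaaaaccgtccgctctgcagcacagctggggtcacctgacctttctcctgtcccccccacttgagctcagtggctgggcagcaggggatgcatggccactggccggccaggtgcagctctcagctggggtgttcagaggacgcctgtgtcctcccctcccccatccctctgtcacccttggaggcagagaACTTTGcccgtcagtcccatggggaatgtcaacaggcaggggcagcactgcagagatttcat
SERPINA1, chr14:94390586-94390885, minus strand: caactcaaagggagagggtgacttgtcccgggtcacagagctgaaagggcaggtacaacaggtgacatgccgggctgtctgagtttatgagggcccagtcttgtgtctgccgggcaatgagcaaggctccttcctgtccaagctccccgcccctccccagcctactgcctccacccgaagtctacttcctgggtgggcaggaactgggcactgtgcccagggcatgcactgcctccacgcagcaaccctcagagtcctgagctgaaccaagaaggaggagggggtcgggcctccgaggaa
F9, chrX:139530489-139530788, plus strand: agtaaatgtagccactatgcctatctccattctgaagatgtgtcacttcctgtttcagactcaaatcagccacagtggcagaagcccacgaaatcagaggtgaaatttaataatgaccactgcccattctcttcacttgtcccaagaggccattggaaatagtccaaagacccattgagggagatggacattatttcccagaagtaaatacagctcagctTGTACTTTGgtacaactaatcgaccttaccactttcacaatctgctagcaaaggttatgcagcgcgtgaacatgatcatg
The motifs were chosen after the sequences were seen, and a match describes letters, not a bound site. CAAAGTCCA occurs in 0.384% of 35116 promoter windows of this length, CAAAGGTCA in 0.407%, CAAAGTNCA, which includes CAAAGTCCA, in 1.10%, and CAAAGT, which is part of both, in 11.9%. Counting the start as position 0, the match spans -2 to 6 in F10, -98 to -90 in VTN, -12 to -7 in F7 and -30 to -22 in F9. AHSG also holds CAAAGTCCA, and C6 and SERPIND1 hold CAAAGTNCA.

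F10, which encodes the protease that converts prothrombin to thrombin, had a summit inside its window in 10 lists, between -16 and 27 of the start. These were 3 of the 4 Panc10.05 lists, all 6 AsPC1 pan-HNF4α lists and 1 P1-antibody list, and the merged region chr13:113122521-113123239 held a peak in 12 lists. VTN, which encodes vitronectin, an inhibitor of the terminal complement complex, had a summit between -192 and -112 in 6 lists: all 4 of Panc10.05 and both P1-α2 lists of BxPC3. SERPINA1, which encodes α1-antitrypsin, had one in the window shown in 7 of the 8 lists of the induced lines, between -240 and -167. A second SERPINA1 start, chr14:94388553-94388852, had one in 6. F7, which encodes the protease that starts clotting with tissue factor, had a summit at -9 and -11 in the 2 BxPC3 P1-α2 lists only. C6, CFI and F12 had a summit in the window in 1 list each. The other 28 genes with a window, F9 among them, had none in any list.

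Summits in promoter windows were uncommon, for these genes and for all genes. In the 8 lists of the induced lines 2.86% to 14.3% of the 35 genes with a window had one, beside 0.985% to 9.37% of 15843 genes with a window. In each AsPC1 pan-HNF4α list F10 alone did, 2.86% beside 3.38% to 8.10%. Merging the peaks of all lists where they overlapped by 1 bp gave 221 distinct regions and 231 pairs of a gene and a region. The summit lay inside the gene in 50 of the pairs, and the gene was the nearest protein-coding gene in 91. Of the regions, 55 were found in 1 list, 21 in 12 or more lists, and 10 in all 14 pan-HNF4α lists. A count of 7 regions lay near more than 1 of the genes, so neighbours such as F7 and F10, ALB and AFP, or FGA, FGB and FGG can share peaks.

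Most of these genes had a peak in the induced lines, and in AsPC1 at most 56.1% did in any list; the shares are set beside those of all genes with no test. In the 4 Panc10.05 lists 31, 36, 38 and 35 of the 41 genes had a peak, 75.6% to 92.7% against 75.9% to 84.3% of all genes. In BxPC3 the count was 37 and 35 for P1-α2 and 25 and 23 for P2-α8, against 83.9% and 78.5%, and 51.8% and 55.0%, of all genes. In the pan-HNF4α lists of AsPC1 the sgNC libraries gave 23 and 22 genes, the sgP1 libraries 20 and 18, and the sgP2 libraries 17 and 22. These are 41.5% to 56.1% of the genes, beside 54.3% to 71.9% of all genes, and the share was below that of all genes in each of the 6 lists. A set of 71 other plasma protein, coagulation and complement genes was nearer to all genes. With a peak in both lists were 56.3% of these 71 in sgNC, 47.9% in sgP1 and 54.9% in sgP2. The shares of all genes were 58.5%, 50.6% and 52.0%. The P1-antibody lists had 2 and 1 for sgNC, 4.88% and 2.44% beside 6.64% and 2.63% of all genes, and 14 and 10 for sgP2, 34.1% and 24.4% beside 33.2% and 27.1%. When only the gene nearest to each summit was counted, 4 to 11 of the genes remained in the AsPC1 pan-HNF4α lists, 9.76% to 26.8% against 29.7% to 46.3% of all genes. In Panc10.05 19 to 24 remained, 46.3% to 58.5% against 48.2% to 60.5% of all genes, and in BxPC3 22, 24, 15 and 12, or 53.7%, 58.5%, 36.6% and 29.3% against 56.5%, 50.6%, 29.2% and 31.1%. The lists differ in length, from 11686 to 41808 peaks with the pan-HNF4α antibody and from 260 to 5200 with the P1 antibody, and the median span of these genes, 17.2 kb, is shorter than the 24.1 kb of all genes.

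**Figure D1:**
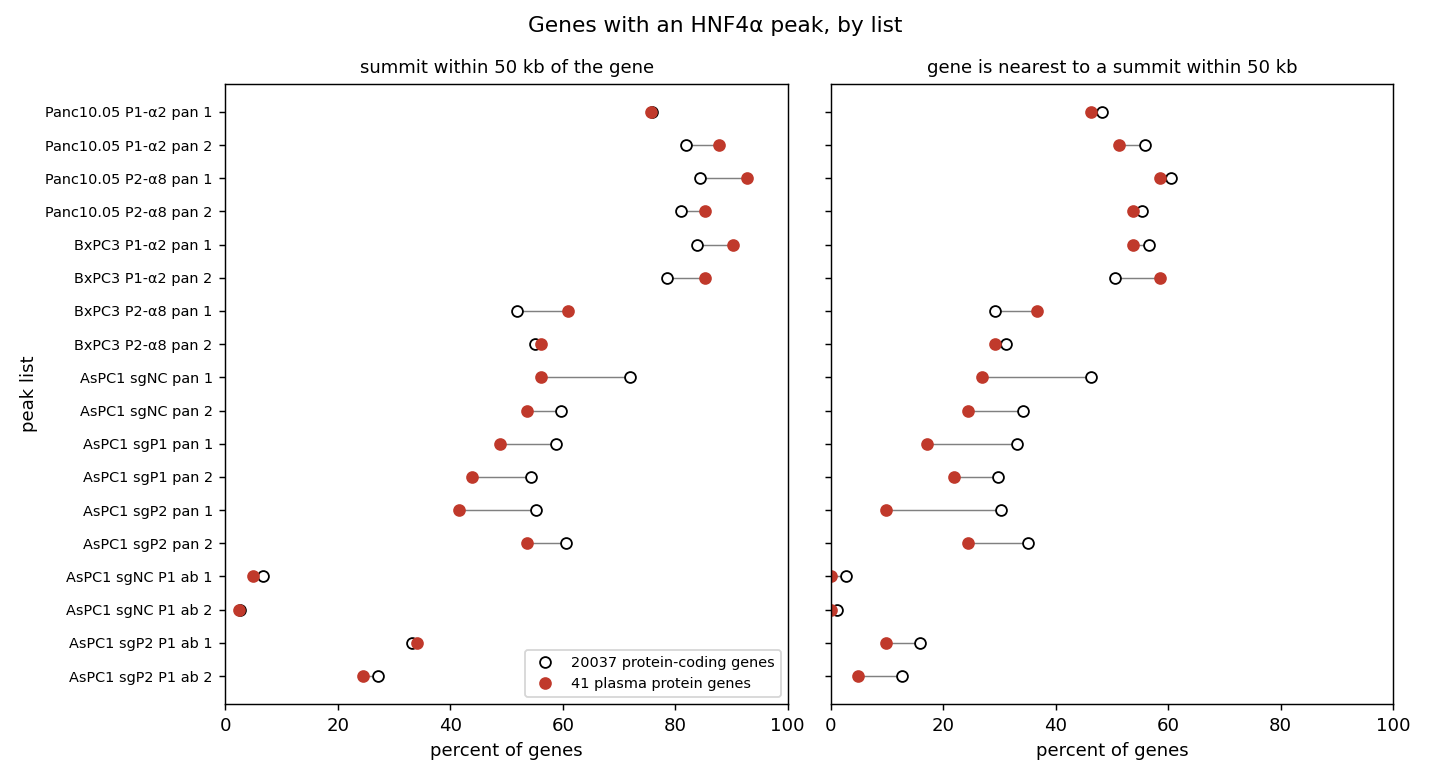
Percent of genes with an HNF4α peak in each of the 18 lists, with 41 plasma protein genes (filled points) beside 20037 protein-coding genes (open points). On the left any summit within 50 kb counts and on the right only the gene nearest to a summit; in the 6 AsPC1 pan-HNF4α lists the filled point lies left of the open one in both panels.

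The genes differed widely in how many lists held a peak. PROC had one in 18 lists, CFB in 17, and PROS1, C3, SERPINF2, KNG1 and C4BPA in 16 each. AHSG and F5 followed with 15, HPX, F10 and F7 with 14, CFI, SERPINA1 and F2 with 13, C5 with 12, and SERPING1 and F12 with 11. TF, MASP1 and SERPINC1 had 10, VTN and C6 9, C8A, HP, F11, TTR and C9 8, and PLG 7. At the low end AFP, ITIH1, MBL2, FGG and F13B had 6, FGA, FGB and AMBP 5, ALB and SERPIND1 4, ITIH3 1 and F9 0. The height of a gene's strongest peak is given below as its percentile by fold enrichment within its own list, 100 being the strongest peak of that list and 0 standing for no peak. Over all genes with a peak, the median of this percentile was 66.3 to 81.1 across the pan-HNF4α lists. For those of the 41 genes with a peak it was 70.4 to 88.7, and it was below that of all genes in each Panc10.05 list. In BxPC3 it was below in P1-α2 replicate 1 (78.4 against 80.4) and above in the other lists. In AsPC1 it was below in sgNC replicate 2 (70.4 against 71.5) and above in the other pan-HNF4α lists. Percentiles from lists of different length are set side by side only as a description.

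**Figure D2:**
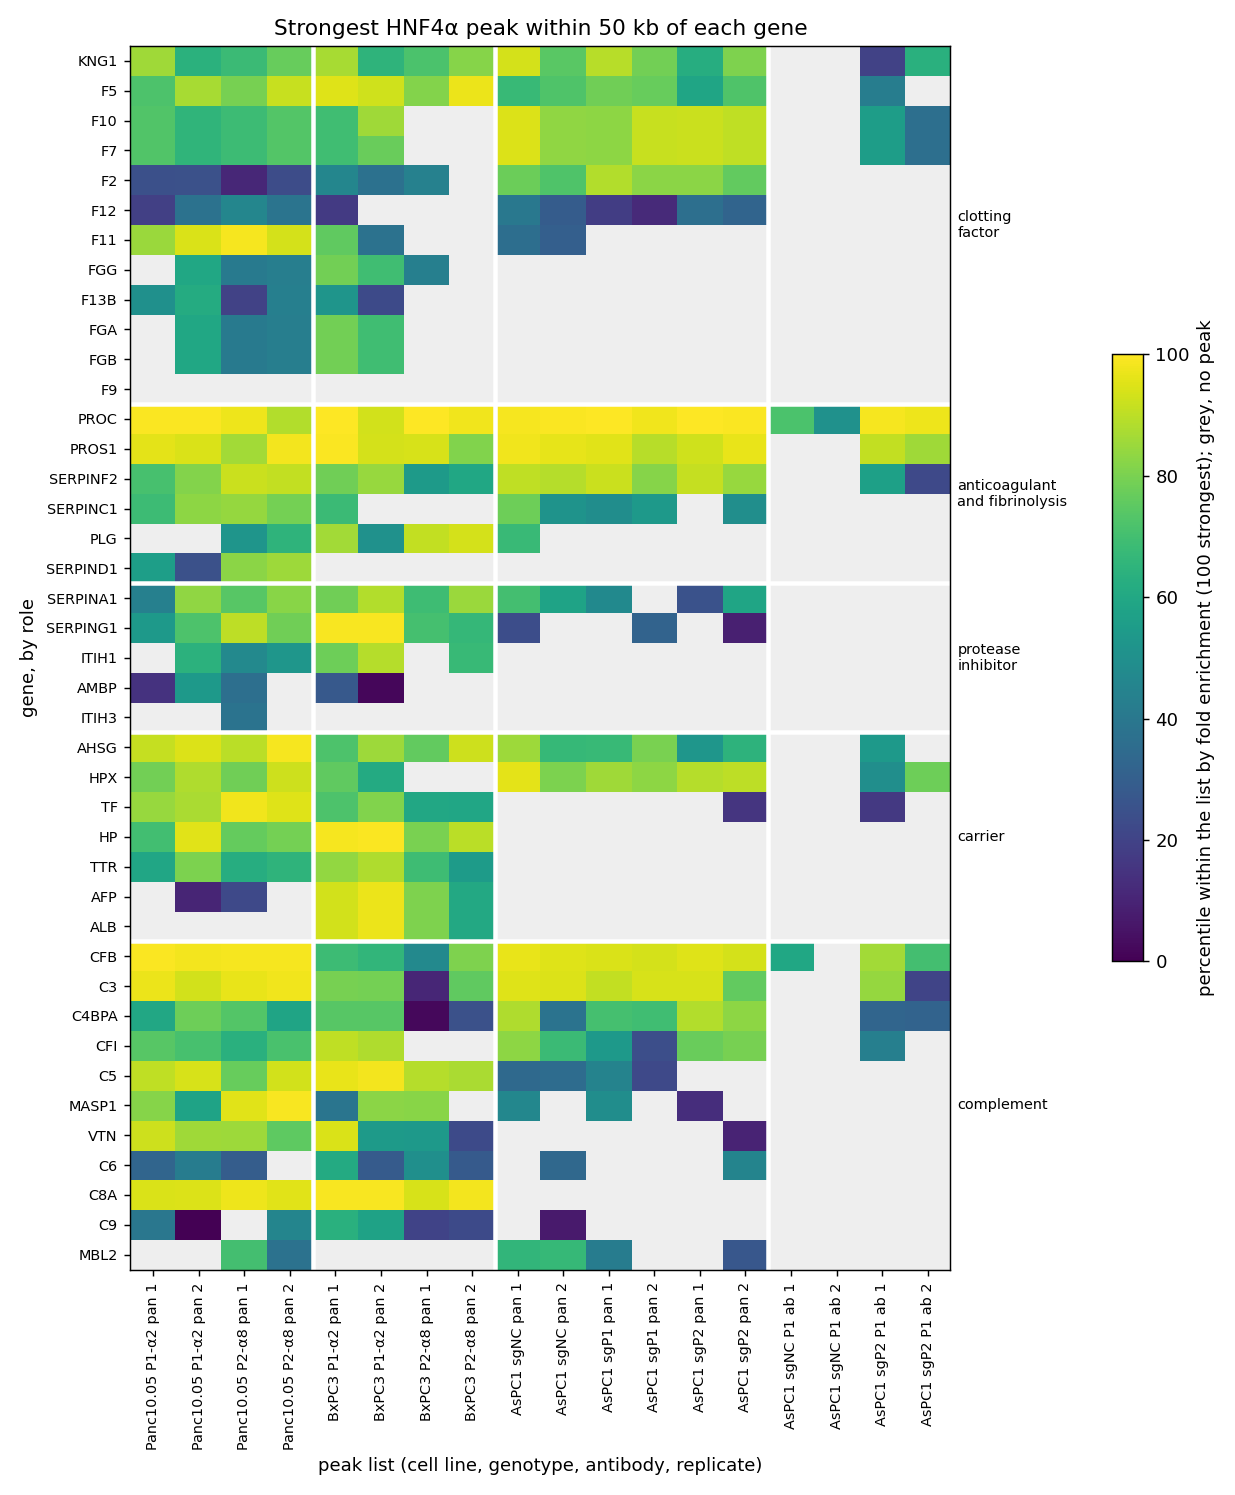
Percentile by fold enrichment of the strongest peak within 50 kb of each of the 41 genes (rows, grouped by role) in each of the 18 lists (columns; white lines separate the lines and the P1 antibody). Grey marks no peak; PROC is coloured in all 18 columns, C8A and HP in the 8 of the induced lines only, and F9 in none.

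Among the anticoagulant genes, PROC stood at 88.5 or above and PROS1 at 81.2 or above in every pan-HNF4α list. PROC encodes protein C, the protease that inactivates factors V and VIII. Its strongest peak stood at 99.4, 99.4, 97.6 and 88.5 in Panc10.05 and at 99.8, 93.1, 99.8 and 97.8 in BxPC3. In the 6 AsPC1 pan-HNF4α lists it ranged from 97.8 to 99.8 (median 99.3). With the P1 antibody it stood at 71.6 and 50.6 in sgNC and at 98.5 and 97.3 in sgP2. One region, chr2:127454527-127456119, held a peak in all 18 lists; it lies 26079 bp beyond the end of PROC and 25491 bp from IWS1, its nearest gene. A region 2058 bp before the PROC start, chr2:127415667-127416704, held a peak in 11 lists: all 8 of the induced lines and 3 of AsPC1.

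PROS1 encodes protein S, the cofactor of protein C. Its strongest peak stood at 95.9, 94.2, 86.1 and 98.2 in Panc10.05 and at 99.5, 93.4, 94.1 and 81.2 in BxPC3. In the AsPC1 pan-HNF4α lists it ranged from 89.3 to 98.0 (median 95.9), and it stood at 91.0 and 85.7 in sgP2 with the P1 antibody. The peak lay inside the gene, at chr3:93913183-93914370, in all 16 of these lists, and the ranges of the 3 lines overlapped. SERPINF2, which encodes α2-antiplasmin, the inhibitor of plasmin, stood at 71.0, 81.5, 91.9 and 90.6 in Panc10.05, at 78.4, 84.5, 54.5 and 59.5 in BxPC3 and at 81.9 to 92.0 (median 89.6) in AsPC1. Its commonest region, chr17:1713788-1715806, is 28128 bp outside the gene and nearest to WDR81.

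The other genes of this role had patchier peaks. SERPINC1, which encodes antithrombin, had a peak in all 4 Panc10.05 lists, 1 BxPC3 list and 5 AsPC1 lists. SERPIND1, which encodes heparin cofactor II, had one in the 4 Panc10.05 lists only, at 56.1, 24.8, 82.6 and 85.3, in a region inside PI4KA 38502 bp before its start. PLG, which encodes plasminogen, had a peak inside the gene, at chr6:160704539-160705029, in both Panc10.05 P2-α8 lists (52.0 and 65.1), in all 4 BxPC3 lists (86.1, 50.6, 90.8 and 93.7) and in 1 sgNC list (67.9).

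Among the clotting factors, KNG1 and F5 had a peak in every pan-HNF4α list. KNG1 encodes kininogen, the cofactor of contact activation and source of bradykinin. Its strongest peak stood at 85.7, 63.9, 68.2 and 76.9 in Panc10.05, at 86.9, 65.1, 71.5 and 81.8 in BxPC3 and at 62.4 to 93.6 (median 79.8) in AsPC1. The commonest region, chr3:186682952-186683790, lies 33984 bp before KNG1 and 5141 bp from HRG. F5 encodes factor V, the cofactor of factor X. It stood at 72.0, 87.1, 79.4 and 91.5 in Panc10.05, at 95.2, 92.8, 81.5 and 97.3 in BxPC3 and at 58.8 to 78.2 (median 72.5) in AsPC1. Within F5 the lists used different places. Region chr1:169520944-169521746 held a peak in the 6 AsPC1 lists and no other, and chr1:169529204-169529909 in the 8 lists of the induced lines and no other. A further region, chr1:169569954-169570660, was found in 2 Panc10.05, 4 BxPC3 and 6 AsPC1 lists.

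F7 and F10 are neighbours on chromosome 13, and peaks were found at 1 or the other of their 2 starts, depending on the list. The F10 start region was found in 4 Panc10.05 lists, at 72.9, 65.3, 68.7 and 73.1, in no BxPC3 list, and in all 6 AsPC1 pan-HNF4α lists, at 83.1 to 94.6 (median 91.1). It was also found with the P1 antibody in sgP2, at 55.5 and 36.6. The F7 start region, chr13:113105580-113105959, was found in both BxPC3 P1-α2 lists, at 69.4 and 77.0, and in no list of the other lines. In the BxPC3 P2-α8 lists neither start held a peak. Those lists are shorter, with 12681 and 14666 peaks against 41808 and 33737 for P1-α2. With each list cut to 12681 peaks, the strongest peak near F7 stood at 0 and 38.9 in the BxPC3 P1-α2 lists. Both F7 summits, at -9 and -11, fall within the CAAAGT match shown above. The 10 F10 summits, between -16 and 27, surround the CAAAGTCCA match at its start, and only the summit at -1 lies inside it. In VTN the 6 summits, between -192 and -112, all lie outside the CAAAGGTCA match at -98 to -90.

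**Figure D3:**
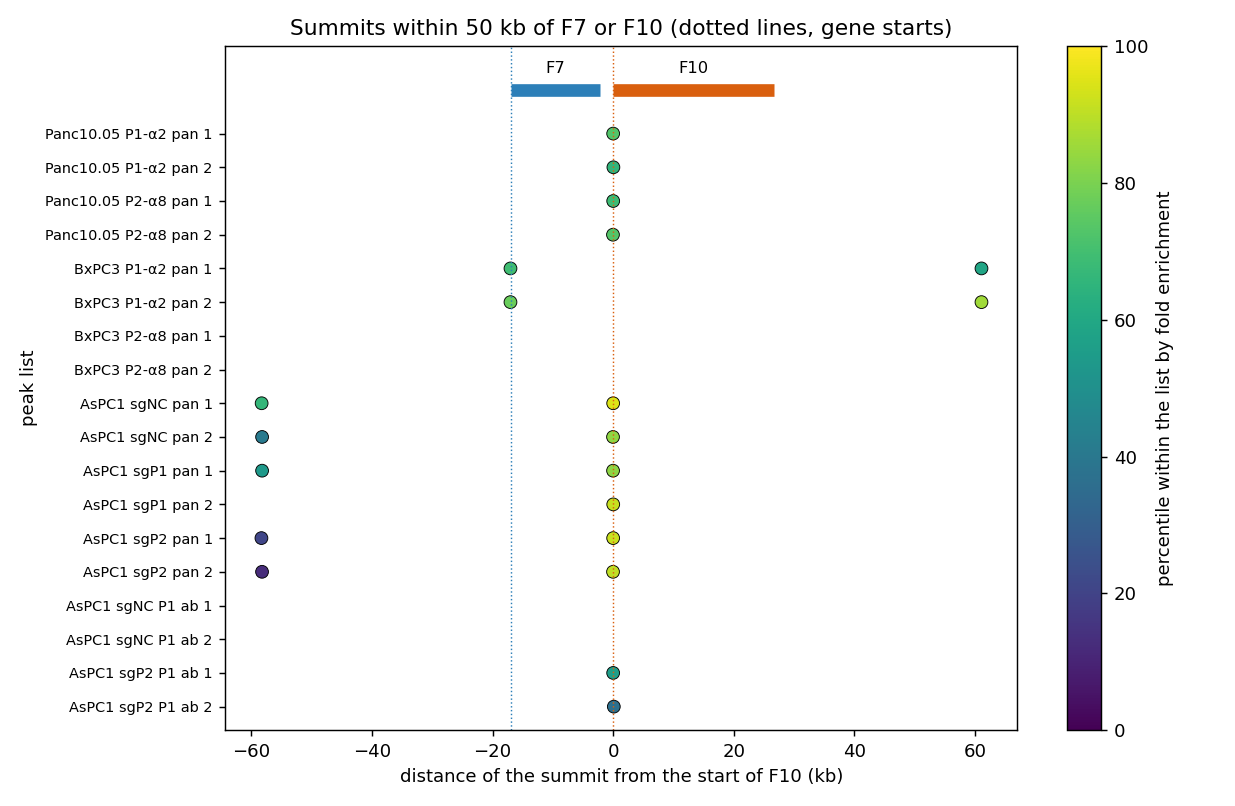
Summits within 50 kb of F7 or F10 in each list (rows), at their distance from the F10 start (kb), coloured by percentile; dotted lines mark the gene starts and bars the gene spans. Summits at the F10 start appear in Panc10.05 and AsPC1 and at the F7 start only in the 2 BxPC3 P1-α2 lists.

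Among the remaining clotting factors, F2, which encodes prothrombin, stood at 24.5, 24.8, 11.2 and 23.4 in Panc10.05, at 46.0, 37.5, 44.0 and 0 in BxPC3 and at 72.6 to 88.3 (median 80.1) in AsPC1, where every list was above every list of the induced lines. The shared region, chr11:46699914-46700967, lies inside ARHGAP1, 18894 bp before F2. F12, which encodes the first protease of contact activation, had a peak in 4 Panc10.05, 1 BxPC3 and 6 AsPC1 lists and did not exceed a percentile of 45.9. F11, which encodes the next protease, stood at 85.0, 94.4, 98.5 and 93.7 in Panc10.05 and no higher than 75.7 elsewhere. In no list was F11 the gene nearest to any of these summits. Its commonest region, chr4:186260403-186260923, lies 5494 bp outside F11 and 2224 bp from KLKB1. That region stood at only 28.4, 43.6 and 50.7 in Panc10.05 and held no peak in P1-α2 replicate 2. The strongest Panc10.05 peaks counted for F11 therefore lay elsewhere. FGA, FGB and FGG, the 3 chains of fibrinogen, shared chr4:154560654-154561077, 2087 bp before FGB, in 3 Panc10.05 and 2 BxPC3 lists. F13B, the carrier subunit of factor XIII, had a peak in 4 Panc10.05 and 2 BxPC3 lists, and neither it nor fibrinogen had one in AsPC1.

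Among the complement genes, CFB, C3 and C4BPA had a peak in all 14 pan-HNF4α lists. CFB encodes the protease of the alternative pathway convertase. It stood at 99.3, 98.3, 98.5 and 98.5 in Panc10.05, at 68.6, 65.9, 47.0 and 80.8 in BxPC3 and at 93.4 to 96.8 (median 94.6) in AsPC1, so that the BxPC3 lists were below all others. Region chr6:31958627-31959767, inside SKIC2 and 7234 bp past CFB, was found in 17 lists. Region chr6:31945350-31946639, 322 bp before the CFB start and 101 bp from C2, was found in the 14 pan-HNF4α lists. C3, the component on which all activation routes converge, stood at 97.1, 93.0, 96.8 and 98.0 in Panc10.05, at 79.6, 79.2, 10.7 and 75.7 in BxPC3 and at 76.0 to 94.9 (median 94.0) in AsPC1. At the C3 gene itself, a region 189 bp outside the span, chr19:6720471-6721273, was found in 4 Panc10.05 and 2 BxPC3 lists and in no AsPC1 list. C4BPA encodes the α chain of C4b-binding protein, which inhibits the classical pathway and carries protein S. It stood at 60.0, 78.0, 73.3 and 58.2 in Panc10.05, at 74.0, 74.1, 2.26 and 24.7 in BxPC3 and at 37.9 to 88.7 (median 76.8) in AsPC1. A region whose nearest gene is C4BPB, chr1:207088547-207090393, was found in all 16 of its lists, and it held the strongest peak in all but Panc10.05 P2-α8 replicate 2, where it stood at 57.7, and BxPC3 P1-α2 replicate 2, where it stood at 12.7.

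Of the terminal components, C8A and C5 stood lower in AsPC1 than in the induced lines. C8A, the α chain of C8, had peaks in the 8 lists of the induced lines and in no AsPC1 list. It stood at 94.4, 94.8, 97.5 and 95.7 in Panc10.05 and at 99.0, 98.9, 93.9 and 98.4 in BxPC3. Both of its main regions were in all 8 lists: chr1:56817893-56819304, inside FYB2 and 35877 bp before C8A, and chr1:56908145-56909189, inside C8A. C5, the precursor of the C5a anaphylatoxin, stood at 90.4, 94.0, 76.6 and 93.2 in Panc10.05, at 96.8, 98.2, 88.7 and 87.1 in BxPC3 and at 0 to 44.9 (median 28.2) in AsPC1. C6 and C9, which follow C5 in the pore, had peaks in 7 lists each of the induced lines, at 63.3 or less, and in 2 and 1 of AsPC1. VTN had a peak in all 8 and in 1 AsPC1 list (10.06). CFI, the protease that cleaves C3b, had a peak in every Panc10.05 and AsPC1 pan-HNF4α list and in the 2 BxPC3 P1-α2 lists. MASP1, a protease of the lectin pathway, had one in 10 lists, and MBL2, its recognition molecule, in 2 Panc10.05 P2-α8 lists and 4 AsPC1 lists.

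Carriers and protease inhibitors were the roles with the smallest share of genes bound in both pan-HNF4α lists of each AsPC1 genotype. Of the 7 carriers, AHSG and HPX had a peak in both pan-HNF4α lists of each AsPC1 genotype, TF in 1 list, and ALB, AFP, TTR and HP in none. AHSG, which encodes fetuin-A, stood at 91.2, 94.9, 89.8 and 98.5 in Panc10.05, at 72.2, 85.3, 76.2 and 92.4 in BxPC3 and at 52.4 to 85.5 (median 67.1) in AsPC1. HPX, which encodes the heme carrier hemopexin, stood at 78.6, 88.0, 78.2 and 92.4 in Panc10.05, at 75.7, 60.9, 0 and 0 in BxPC3 and at 80.4 to 96.0 (median 87.3) in AsPC1. Its commonest region, chr11:6458965-6459828, lies inside TRIM3. That region stood at 78.6, 60.4, 35.8 and 25.1 in Panc10.05 and at 75.7 and 27.3 in BxPC3 P1-α2. Other sites thus held the strongest peak in several of these lists. HP, which encodes haptoglobin, stood at 69.6, 95.5, 76.2 and 79.1 in Panc10.05 and at 98.5, 99.3, 79.8 and 89.8 in BxPC3, and was 0 in every AsPC1 list. TTR, the thyroxine and retinol carrier, also had a peak in all 8 lists of the induced lines and no AsPC1 list, in chr18:31566856-31567493, 24788 bp from TTR and 18081 bp from DSG2. TF, which encodes transferrin, stood at 84.5, 87.3, 98.0 and 95.2 in Panc10.05, at 72.2, 81.1, 60.1 and 59.2 in BxPC3 and at 15.2 in 1 AsPC1 pan-HNF4α list. ALB and AFP shared chr4:73432045-73432677, 3917 bp before AFP, in the 4 BxPC3 lists only, at 93.2, 97.0, 80.6 and 60.2.

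SERPINA1 had a peak in all 8 lists of the induced lines and 5 AsPC1 lists. The AsPC1 peaks were at chr14:94342155-94342633, 34347 bp from the gene, and none lay at its starts. SERPING1, which encodes the C1 inhibitor, stood at 53.5 to 90.2 in Panc10.05 and at 66.6 to 99.1 in BxPC3. The highest values, 99.1 and 99.0, were those of BxPC3 P1-α2. In AsPC1 SERPING1 reached 31.9 at most. ITIH1, a heavy chain of the inter-α-inhibitor family, had a peak in 6 lists and AMBP, which encodes its light chain bikunin, in 5, all of the induced lines. ITIH3, another heavy chain, had 1 peak, at 38.2 in a Panc10.05 P2-α8 list.

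Isoforms were compared within each line by asking which genes had a peak in both lists of one isoform and in neither of the other. In Panc10.05, 0 of the 41 genes were called for P1-α2 (0.928% of all genes were) and 2, PLG and MBL2, for P2-α8 (2.59% of all genes), while 28 had a peak in all 4 lists (71.5%). PLG and MBL2 remained when all 4 lists were reduced to their 24828 strongest peaks (2.23%), and AMBP and C6 were then called for P1-α2 (2.27%). Without P1-α2 replicate 2 the P2-α8 count was 6, and without P2-α8 replicate 1 or 2 the P1-α2 count was 2 or 1. Dose and isoform change together in this line. In BxPC3, 9 genes were called for P1-α2: F7, F10, F11, F13B, FGA, FGB, AMBP, HPX and CFI, where 16.5% of all genes were called. The F7 start region counts for both F7 and F10, and FGA and FGB share their region, so the 9 are not separate sites. For P2-α8 the count was 0 (0.00998%), and 22 genes had a peak in all 4 lists (45.2%). The P1-α2 lists had 41808 and 33737 peaks and the P2-α8 lists 12681 and 14666. At 12681 peaks in each list, FGA, FGB and CFI remained (3.11%), with CFI at 68.1 and 68.6 in P1-α2, and C6 and C9 were called for P2-α8 (2.1%). With 2 lists against 2, an exact permutation test cannot give a p below 0.333, so these are descriptions. The 71 other plasma protein, coagulation and complement genes were read in the same way. In Panc10.05 F13A1 was called for P1-α2 (1.41% of the 71) and SAA2 and SAA4 for P2-α8 (2.82%). In BxPC3 PROZ, KLKB1, CFHR5, CD55, PZP and RBP4 were called for P1-α2 (8.45%) and 0 for P2-α8. The F11 region 2224 bp from KLKB1 counts for both of these genes.

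Guides were compared in AsPC1 in the same way, with sgNC shared by the first 2 comparisons. For sgP1 against sgNC, 0 genes were called in sgP1 (0.17%) and 1, F11, in sgNC (3.59%). F11 stood at 36.0 and 30.4 in sgNC. For sgP2 against sgNC, 0 were called in sgP2 (0.13%) and 2, F11 and C5, in sgNC (2.8%). Between the guides, C5 was called for sgP1 over sgP2 (0.943%), at 44.9 and 22.1, and 0 genes for sgP2 over sgP1 (1.68%). At equal list length C5 alone kept its call, for sgP1 over sgP2 (1.27%), and 0 genes were called for sgP2 over sgP1 (1.22%), for sgP1 or sgNC over the other (1.24% and 1.39%) or for sgP2 or sgNC over the other (1.2% and 1.16%). A peak in all 4 lists was found for 17 genes in the comparison of sgP1 with sgNC (48.8%), 16 in that of sgP2 with sgNC (49.9%) and 15 in that of the 2 guides (46.4%). These counts move with single libraries. Genes called for sgNC over sgP1 numbered 3 without sgNC replicate 1 or sgP1 replicate 1 and 2 without sgNC replicate 2, and for sgNC over sgP2 4 without sgP2 replicate 2. Without sgP2 replicate 1, sgP2 had 2 genes over sgNC and 3 over sgP1. Without sgP2 replicate 2, sgP1 had 2 over sgP2, and without sgP1 replicate 1, sgP2 had 1 over sgP1. A peak was present in both lists for 20 genes in sgNC (48.8% against 58.5% of all genes), 17 in sgP1 (41.5% against 50.6%) and 16 in sgP2 (39.0% against 52.0%). PROC, PROS1, SERPINF2, KNG1, F2, F5, F7, F10, F12, HPX, AHSG, C3, C4BPA, CFB and CFI were bound in both lists of sgP1 and of sgP2.

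With the P1 antibody, 8 of the genes had a peak in both sgP2 lists and in neither sgNC list: F7, F10, KNG1, SERPINF2, PROS1, HPX, C3 and C4BPA. The same pattern held for 17.1% of all genes, and 0 genes showed the opposite (0%). PROS1 stood highest, at 91.0 and 85.7, followed by HPX at 49.5 and 77.9. C3 stood at 84.1 and 20.5, F7 and F10, through their shared site, at 55.5 and 36.6, KNG1 at 19.7 and 63.3 and SERPINF2 at 56.7 and 21.9. PROC was the 1 gene with a peak in all 4 P1-antibody lists (2.3% of all genes). CFB had one in both sgP2 lists, at 86.0 and 70.0, and in 1 sgNC list, at 59.4. The sgNC lists held 697 and 260 peaks and the sgP2 lists 5200 and 3916, and at 260 peaks in each list 0 of the 8 genes remained (0.309%). Within sgP2, 10 genes had a peak in all 4 lists of both antibodies (23.6%), 0 in the P1-antibody lists alone (0.02%) and 3, F2, F12 and SERPINA1, in the pan-HNF4α lists alone (17.6%). F2 was the 1 of these that remained at 3916 peaks (1.21%, and 0.799% for the P1 antibody, with 0 of the 41), with 44.8 and 7.10 in the pan-HNF4α lists. The count of 3 was 8 without pan-HNF4α replicate 1 and 6 without P1-antibody replicate 1.

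Cell lines were compared across isoforms and guides. Line and the number that opens the titles change together and cannot be told apart. Between the induced lines, 17 genes had a peak in all 8 lists (41.6% of all genes). SERPIND1 had a peak in every Panc10.05 list and no BxPC3 list (2.48% of all genes) and ALB in every BxPC3 list and no Panc10.05 list (0.609%). Without BxPC3 P1-α2 replicate 1, the Panc10.05 count was 3. At 12681 peaks a list, ALB and AFP were called for BxPC3 (1.83%), at 53.9 to 92.0, and SERPINC1 for Panc10.05 (3.53%), at 38.6 to 53.8. The percentile of the strongest peak at this length was tested over all 20037 genes by a two-sided exact permutation test. After Benjamini-Hochberg adjustment, 0 genes passed a threshold of 0.05 (0% in either direction), since 4 lists against 4 cannot go below 0.0286 and the smallest adjusted p was 0.171. At the smallest unadjusted p, 6 genes were higher in Panc10.05 (F11, SERPINC1, TF, HPX, C3 and CFB; 10.6% of all genes) and 5 in BxPC3 (F5, ALB, AFP, C5 and C8A; 6.13%). F11 had the widest gap, with a mean of 83.6 ± 10.12 (SD, n = 4) in Panc10.05 against 4.95 ± 9.91 (n = 4) in BxPC3. All peaks counted for F11 were nearest to another gene.

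AsPC1 was compared with both induced lines at a common -log10 q of at least 8, the minimum of the induced lists. Line, induction of a transgene and title number cannot be told apart in this comparison. SERPING1, TTR, TF, HP, C8A and VTN had a peak in all 8 lists of the induced lines and in none of AsPC1, 6 genes where 5.51% of all genes were called. The reverse held for 0 genes (0.0948%), and 9 genes had a peak in all 14 lists (26.2%). C8A alone remained at 8164 peaks a list (1.83%), and 0 genes were then called for AsPC1 (1.94%). In the lists as deposited, in which AsPC1 peaks reach down to a -log10 q of just above 2, C8A, HP and TTR remained (3% of all genes), with 0 for AsPC1 (0.14%). Among the 71 other genes, C7, C8B, A2M, CP, CRP, ORM1 and SAA1 were called for the induced lines (9.86% of the 71) and 0 for AsPC1.

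At 8164 peaks a list, 10 of the genes differed in the height of their strongest peak by the exact permutation test with Benjamini-Hochberg adjustment over 20037 genes. Higher in AsPC1 were 6 genes, F2, F7, F10, SERPINF2, HPX and C4BPA, where 14.4% of all genes were, and higher in the induced lines were 4, TF, HP, C5 and C8A, where 7.16% were. The AsPC1 genes are 14.6% of the 41 and the induced-line genes 9.76%. F2 ranged from 33.4 to 79.9 (median 64.5) in AsPC1, and in the induced lines from 0 to 13.1 with a median of 0. F7 and F10, through the F10 start, ranged from 69.3 to 88.0 (median 83.2) in AsPC1, and in the induced lines F7 reached 17.5 and F10 40.7. None of these ranges overlapped. The adjusted p was 0.00481 for each of these 3 genes in the exact permutation test, the smallest the test can give here.

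SERPINF2 ranged from 71.1 to 86.8 in AsPC1 and from 0 to 61.4 in the induced lines (exact permutation test, adjusted p = 0.00756), again without overlap. HPX ranged from 63.8 to 88.1 and from 0 to 68.8 (exact permutation test, adjusted p = 0.0139), and 1 induced list passed the lowest AsPC1 list. C4BPA ranged from 0 to 82.8 and from 0 to 7.85 (exact permutation, adjusted p = 0.0203), with a peak in 5 of 6 AsPC1 lists and 1 of 8 induced lists. In the other direction, C8A ranged from 78.1 to 97.2 (median 89.2) in the induced lines and was 0 in AsPC1 (exact permutation, adjusted p = 0.00481). C5 ranged from 0 to 92.4 (median 75.8) and reached 5.24 in AsPC1 (exact permutation, adjusted p = 0.0228). In the same exact permutation test HP (0 to 97.0, median 74.8, adjusted p = 0.0296) and TF (0 to 90.6, median 42.5, adjusted p = 0.0318) had a peak in 7 of 8 induced lists and in no AsPC1 list. These calls also depend on the distance and the minimum: within 10 kb F7 and F10 remained and KNG1 was added in AsPC1, C5 alone remained in the induced lines, and F2, SERPINF2, HPX, C4BPA, TF, HP and C8A were lost. At a -log10 q of at least 20 F2, C4BPA, TF and HP were lost. They depend on list length as well: in the full lists 1 gene, F2, was higher in AsPC1 (4.4% of all genes) and 16 in the induced lines (29.1%), the 4 above among them. Leaving out any 1 of the 6 AsPC1 libraries took HP out of the induced-line genes, and in all but sgP1 replicate 2 took TF out too, which left 2 genes, C5 and C8A. HP was also lost without any 1 of the 4 BxPC3 libraries or without Panc10.05 P1-α2 replicate 2. The test treats the 6 AsPC1 and 8 induced lists as exchangeable, although they hold 3 genotypes and 2 lines with 2 isoforms. With the Panc10.05 lists alone beside AsPC1, F11, TF, C8A and CFB were higher in Panc10.05. With the BxPC3 lists alone, F5, SERPING1, ALB, AFP, TTR, HP, C5 and C8A were higher in BxPC3. Of the 4 induced-line genes, only C8A was thus called in both lines. F2, F7, F10, SERPINF2 and HPX were higher in AsPC1 beside either line, C3 and CFB beside BxPC3 only, and C4BPA beside neither.

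**Figure D4:**
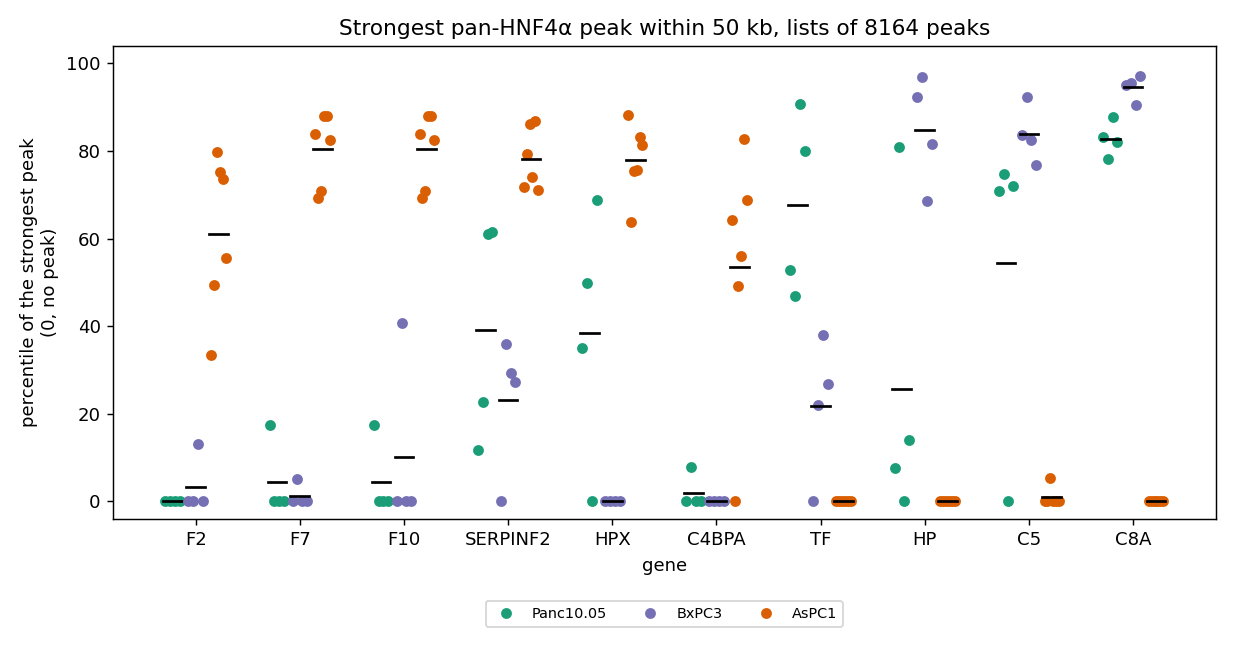
Percentile of the strongest pan-HNF4α peak within 50 kb (y axis; 0 marks no peak) in lists of 8164 peaks, for the 10 genes past an adjusted p of 0.05; each point is a list, coloured by line, and bars are means of a line. For F2, F7, F10 and SERPINF2 the 6 AsPC1 points lie above all 8 points of the other lines, and for C8A they all lie at 0.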

How the data were processed

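The deposited narrowPeak lists, 1 per library for 18 of 32 libraries, were used; the 14 input libraries were not analysed here. Each deposited list gives the fold enrichment of a peak as a ratio. P-values and q-values are written on the −log10 scale, and the deposited score is the −log10 q times 10, rounded down. The authors made all of these values. The submitters' processing notes name Bowtie2 2.2.9, MACS2 2.2.7 and the builds hg38 and mm10, with no role stated. Summits were matched to RefSeq GRCh38.p14 spans; 5.33% to 18.8% lay within 1 kb of a gene end, against 3.46% to 4.88% after a shift of 100 kb. Read depth is not given in the sources used here, so precision rests on list length, and no interval for reads is given.

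Python 3.11.15 with numpy 2.4.6 and pandas 2.3.3 ranked peaks by fold enrichment within their list. A gene was called when every list of one group and no list of the other had a summit within 50 kb. Two-sided exact permutation tests of equal-length percentiles, adjusted over all 20037 genes by Benjamini-Hochberg, compared lines. The window code was checked against bedtools 2.31.1, with 0 differing genes, and tested on simulated data. The labels state collection per replicate but not separate cultures, so p-values measure the spread between these libraries, which may be technical.

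The genes, their roles and the list of 71 others were chosen with earlier results of these data known. Named in full are the 10 genes with a peak in the most lists, every called gene, and any gene with a peak in no list. Alternatives for the called genes were a −log10 q of at least 20, a distance of 10 kb, equal list length, leaving out each library and a replicate block; the nearest gene only, lists as deposited and every alternative of the permutation test of AsPC1 against the induced lines were added after seeing the data, as were those of the counts of genes with a peak in both lists of a group.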

Additional observations from a re-analysis of the deposited data

How the results depend on the processing

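With lists of equal length, the counts of genes called became 2 for Panc10.05 P1-α2, 3 for BxPC3 P1-α2, 2 for BxPC3 P2-α8, 0 for sgNC over sgP1 and 0 over sgP2, 0 for the P1 antibody in sgP2 over sgNC, 1 for pan-HNF4α over the P1 antibody, 2 for BxPC3 over Panc10.05 and 1 for the induced lines over AsPC1. With a −log10 q of at least 20 they were 0 for sgNC over sgP1, 0 for sgNC over sgP2, 0 for sgP1 over sgP2, 1 for sgP2 over sgP1, 2 for the P1 antibody in sgP2, 7 for pan-HNF4α over the P1 antibody and 2 for BxPC3 over Panc10.05. Within 10 kb they were 3 for sgNC over sgP1, 5 for sgNC over sgP2, 3 for the P1 antibody in sgP2 and 2 for Panc10.05 over BxPC3. In the lists as deposited the induced lines had 3 over AsPC1. In the permutation test of AsPC1 against the induced lines, 3 genes were higher in AsPC1 and 1 in the induced lines within 10 kb. The counts were 1 and 16 in full lists and 4 and 2 at a −log10 q of at least 20. Beside AsPC1 they were 5 and 4 with the Panc10.05 lists alone and 7 and 8 with the BxPC3 lists alone. Of the 18 counts of genes called, equal length lowered 6, raised 3 and left 9 as they were, and the cause of a list's length was not tested.

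Leaving out 1 library at a time gave 0 to 2 genes for Panc10.05 P1-α2, 2 to 6 for Panc10.05 P2-α8, 9 to 12 for BxPC3 P1-α2 and 0 to 0 for BxPC3 P2-α8. It gave 0 to 0 for sgP1 over sgNC, 1 to 3 for sgNC over sgP1, 0 to 2 for sgP2 over sgNC, 2 to 4 for sgNC over sgP2, 1 to 2 for sgP1 over sgP2 and 0 to 3 for sgP2 over sgP1. It gave 8 to 12 for the P1 antibody in sgP2 over sgNC and 0 to 0 the other way, and 3 to 8 for pan-HNF4α over the P1 antibody and 0 to 0 the other way. Between lines it gave 1 to 3 for Panc10.05, 1 to 1 for BxPC3, 0 to 0 for AsPC1 and 6 to 7 for the induced lines, and in the permutation test 6 to 7 for AsPC1 and 2 to 5 for the induced lines. Fewer lists make a call easier to meet, by construction. Of the 27 other values recomputed, the counts of genes with a peak in both lists of a group, 20 moved by more than 1.5 times.

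A replicate block, in which a call must hold within each pair of libraries with 1 number, gave the same counts by construction (0, 2, 9, 0, 0, 1, 0, 2, 1, 0, 8, 0, 3, 0, 1 and 1 in the order above). Deviations of same-numbered libraries correlated between -0.108 and 0.107 across 20037 genes in 7 comparisons. These values cannot tell whether same-numbered libraries shared a culture or a preparation. No block was possible for AsPC1 against the induced lines in the permutation test because the pairing has no meaning across lines.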
